A study of Nannospalax ehrenbergi and Mus musculus with 14 samples.

Results

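MiR-451a, both arms of miR-144 and the miR-486 names are microRNAs abundant in red blood cells, and miR-486 is also made in skeletal muscle. Their rows were picked by name, miR-451a, miR-144-3p, miR-144-5p, miR-486a-5p, miR-486a-3p, miR-486b-5p and miR-486b-3p, which gave 7 of the 1326 microRNA names in the tables. All 7 passed the filter on low values in both species. Small RNA was sequenced from *Spalax*, the blind mole rat, and from mice that had received an injection of 3-methylcholanthrene (3MCA), a chemical carcinogen, into one side of the neck. The injected side (IS) held the tumor, and the uninjected side (UIS) was muscle tissue of the other side of the same animals, so the UIS comes from exposed animals too. All 14 libraries came from animals with a tumor, and tissue of untreated animals was not analysed here. MicroRNA values are normalized counts, that is, reads over the size factor of their library.

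*Spalax* animals spalax_600 and spalax_976, both female, bore benign granulomas and were sampled 14 and 16 months after 1 mg of 3MCA in 500 µl. *Spalax* animals spalax_2240, a female, and spalax_2230, a male, received the same dose, bore malignant fibrosarcomas and were sampled at 18 and 30 months. The age of the *Spalax* animals was estimated at 2 to over 10 years. Animals mouse_512, mouse_1023 and mouse_1019, C57BL/6 males of 3 to 4 months, received 200 µg in 200 µl, bore fibrosarcomas and were sampled at 11, 12 and 14 weeks. Each group therefore holds 2 *Spalax* libraries or 3 mouse libraries, each from 1 animal. The column of the UIS library that the labels give to mouse_1019 bears the number of a different mouse, so this library (the unpaired library below) was a replicate of its group without a pair.

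Mature red cells have no nucleus but keep the microRNAs that were made while they formed. MiR-144 and miR-451a are cut from a shared primary transcript that the factor GATA1 switches on in red-cell precursors, and miR-451a is unusual in being cut by Argonaute 2 instead of Dicer. MiR-486 lies within the gene of ankyrin 1, a protein of the red-cell membrane skeleton that also has a short form in muscle.

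The mouse hairpins below show why 2 of the microRNAs form a unit and why the miR-486 names are hard to tell apart. The letters come from GENCODE M21 on GRCm38, are written 5′ to 3′ on the strand of the gene, and have the longest run of perfect base pairs of the stem in capitals. *Mir144* lies at chr11:78073005-78073070 and *Mir451a* at chr11:78073170-78073241, both on the plus strand with 99 bases between them. No other gene of the annotation overlaps the span of these hairpins, apart from *Mir451b*, annotated on the minus strand at the place of *Mir451a*. *Mir486* lies at chr8:23142555-23142682 on the plus strand, in an intron of *Ank1* with 0 annotated exons or UTRs of that gene over it. *Mir3107* lies within *Mir486* at chr8:23142573-23142662 on the minus strand, and an antisense gene, *Gm15816*, also spans the place.
Mir144: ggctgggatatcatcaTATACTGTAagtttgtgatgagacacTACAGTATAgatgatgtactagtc
Mir451a: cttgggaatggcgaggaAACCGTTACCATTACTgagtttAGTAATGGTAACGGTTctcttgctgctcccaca
Mir486: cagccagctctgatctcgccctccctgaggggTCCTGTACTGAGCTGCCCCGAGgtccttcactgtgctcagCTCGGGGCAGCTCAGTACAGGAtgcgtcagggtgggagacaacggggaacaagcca
Mir3107: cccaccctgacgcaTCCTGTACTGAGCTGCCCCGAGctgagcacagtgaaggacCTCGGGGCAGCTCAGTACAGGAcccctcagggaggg

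The perfect stem run is 9 base pairs in *Mir144*, 16 in *Mir451a* and 22 in *Mir486*. The 22 bases on each side of the *Mir486* stem are reverse complements of each other, so the hairpin read from the opposite strand, *Mir3107*, holds the same 22 letters on its 5′ side and on its 3′ side. A read of these letters therefore does not show which strand it came from. MiR-486a-5p and miR-486b-5p held the same value in each of the 14 libraries, so the 7 names make 6 distinct rows. The 3p names are close but not the same, with 199 and 239 reads in the UIS library of animal spalax_600. Because reads may have been counted under both a and b names, values below use 1 name at a time unless both are named.

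The libraries held 1978486 to 9147180 microRNA reads at the IS and 10568489 to 12769782 at the UIS, with identical rows counted once. A count of 0 allows up to 3 reads, which lay between 2.35e-05% and 0.000152% of a library and covers counting error only. The UIS tissue carried muscle microRNAs as labelled: 15 names of the families miR-1, miR-133 and miR-499 together with miR-206 and miR-208b held 31.4% to 38.2% of the reads in the 7 UIS libraries, and 0.0106% to 4.25% in the 7 IS libraries. The size factors follow the many microRNAs outside that list, and values scaled to the library total are given where they change a call or a direction.

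MiR-451a, the most abundant of the red-cell pair, did not pass the threshold in any comparison in the main limma fit, which has no animal block. Other fits, limma with the block among them, called it lower in mice. In granuloma-bearing *Spalax* its normalized count at the UIS was 30143 in animal spalax_600 and 34781 in animal spalax_976. At the IS it was 35767 in animal spalax_600 and 6609 in animal spalax_976. It was thus somewhat higher at the IS in one animal and lower in the other, and the sides overlapped. In fibrosarcoma-bearing *Spalax* the UIS held 73633 in animal spalax_2230 and 29549 in animal spalax_2240. The IS held 10654 in animal spalax_2230 and 34052 in animal spalax_2240. Again one animal was higher at the IS and one lower.

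In mice, the UIS libraries held 126347 miR-451a normalized counts in mouse_512, 26103 in mouse_1023 and 7916 in the unpaired library. The IS libraries held 8032 in mouse_512, 5676 in mouse_1023 and 2938 in mouse_1019. Both paired mice were lower at the IS, while the unpaired UIS library lay just under the highest IS library, so the sides overlapped. The UIS libraries of mice ranged 16.0-fold for miR-451a, a log2 range of 4.00, and 10 of the 547 microRNAs tested had a wider one. As a share of reads, miR-451a lay between 0.0552% and 0.879% over all 14 libraries.

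The log2 fold change of miR-451a at the IS was -1.07 (standard error 0.88) in granuloma, -1.29 (standard error 0.88) in *Spalax* fibrosarcoma and -2.54 (standard error 0.97) in mouse fibrosarcoma. With limma, adjusted p was 0.339, 0.287 and 0.0573. With the animal as a block, which in mice rests on the pairs of mouse_512 and mouse_1023 alone, the mouse value was -3.09 and passed the threshold (adjusted p = 0.00623), and the *Spalax* values did not (adjusted p = 0.326 and 0.265). Without the unpaired mouse UIS library the mouse value was -3.49, which also passed (adjusted p = 0.0176), and without the UIS library of mouse_512 it was -1.49 (adjusted p = 0.121). The tools edgeR and DESeq2 on the recovered reads called it lower in mice as well, at -3.15 to -3.35 (adjusted p from 0.00145 to 0.0300). Scaled to library totals, the values were 0.77, 0.39 and -0.15, with adjusted p of 0.462, 0.736 and 0.872, so the direction in *Spalax* turns. The same scaling moved the median of all microRNAs tested to 1.90, 1.40 and 2.58 from 0.13, -0.23 and 0.21, and miR-451a stayed below that median.

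**Figure D1:**
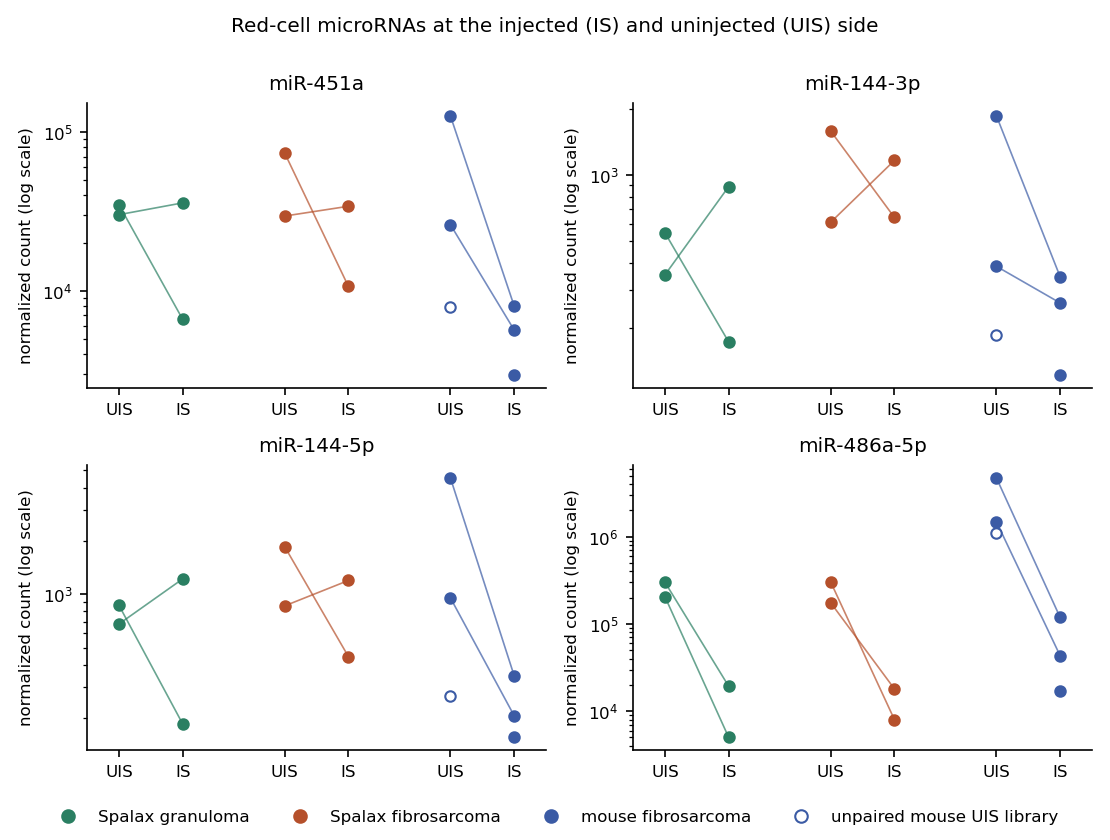
Normalized counts (log scale) of miR-451a, miR-144-3p, miR-144-5p and miR-486a-5p at the UIS and IS of each condition, 1 point per library, with lines joining the sides of an animal and an open circle for the unpaired mouse UIS library. For miR-451a and both arms of miR-144 the lines of the *Spalax* animals cross, with 1 animal higher and 1 lower at the IS of each tumor type. For miR-486a-5p every IS library lies below every UIS library of its condition.

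MiR-144-3p is the arm of miR-144 usually taken as the active one, and miR-144-5p comes from the other side of the same stem. For miR-144-3p the UIS normalized counts were 351 and 546 in animals spalax_600 and spalax_976, and the IS counts were 889 and 174. In fibrosarcoma-bearing animals spalax_2230 and spalax_2240 they were 1592 and 611 at the UIS and 642 and 1170 at the IS. In mouse_512, mouse_1023 and the unpaired library the UIS counts were 1870, 384 and 187, and the IS counts of mouse_512, mouse_1023 and mouse_1019 were 344, 262 and 122. The order of the libraries within each group was the same as for miR-451a, and the sides overlapped in each comparison.

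For miR-144-5p, the UIS counts were 679 and 865 in animals spalax_600 and spalax_976 and the IS counts were 1221 and 185. They were 1856 and 859 at the UIS of animals spalax_2230 and spalax_2240, and 444 and 1196 at their IS. In mice, the UIS libraries held 4541, 954 and 266 and the IS libraries 347, 206 and 155, in the order given for miR-144-3p. The same animals stood high or low as for the other arm. The main limma fit, without the block, called neither arm of miR-144, while other fits called miR-144-5p lower in mice. The limma log2 fold changes of miR-144-3p were -0.16, -0.19 and -1.20 (standard errors 0.84, 0.84 and 0.87) with adjusted p of 0.912, 0.885 and 0.265. Those of miR-144-5p were -0.69, -0.79 and -2.23 (standard errors 0.92, 0.92 and 0.98) with adjusted p of 0.565, 0.531 and 0.0891. With the animal as a block, miR-144-5p passed in mice at -2.96 (adjusted p = 0.0140). The tools edgeR and DESeq2 also called it in mice, at -2.90 to -3.11 (adjusted p from 0.00309 to 0.0396). Without the unpaired mouse UIS library the limma value was -3.22 (adjusted p = 0.0208), and without the UIS library of mouse_512 it was -1.17 (adjusted p = 0.202). Scaled to library totals, all 6 values of the miR-144 arms were above 0, between 0.15 and 1.68, and none passed the threshold.

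MiR-486a-5p differed between the sides in every comparison. In granuloma-bearing *Spalax* it held 299759 and 204407 normalized counts at the UIS of animals spalax_600 and spalax_976, and 19291 and 5006 at the IS. In fibrosarcoma-bearing *Spalax* it held 302109 and 174676 at the UIS of animals spalax_2230 and spalax_2240, and 8017 and 18022 at the IS. In mice the UIS held 4704593 in mouse_512, 1481586 in mouse_1023 and 1106111 in the unpaired library, and the IS held 118677, 43200 and 17207 in mouse_512, mouse_1023 and mouse_1019. The lowest UIS library of each condition lay well above its highest IS library.

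The log2 fold change of miR-486a-5p was -4.65 in granuloma (limma, standard error 0.69, adjusted p = 0.00179), -4.26 in *Spalax* fibrosarcoma (standard error 0.69, adjusted p = 0.00301) and -5.47 in mice (adjusted p = 0.00246, standard error 0.81). It was thus 25.2-fold, 19.1-fold and 44.4-fold lower at the IS. With single libraries left out it was 12.8-fold (without the IS library of spalax_976) to 49.4-fold (without that of spalax_600) lower in granuloma. In *Spalax* fibrosarcoma it was 12.7-fold (without the IS library of spalax_2230) to 28.7-fold lower, and in mice 27.6-fold (without the IS library of mouse_1019) to 72.5-fold (without that of mouse_512) lower. Its 3p arms are minor products. MiR-486a-3p held 241 to 384 normalized counts at the *Spalax* UIS and 3.80 to 8.68 at the IS, which there stands for 3 to 10 reads. In mice it held 4757 to 13394 at the UIS and 15.2 to 123 at the IS. On the log2(normalized count + 1) scale the fold changes were -5.47, -5.41 and -7.03 for miR-486a-3p and -5.47, -5.05 and -7.19 for miR-486b-3p (limma, highest adjusted p = 0.00123). Scaled to library totals, miR-486a-5p was still lower, at -2.81, -2.57 and -3.09 (limma, adjusted p = 0.00850, 0.0159 and 0.00497). In bulk tissue, fewer cells of a type and less microRNA per cell cannot be told apart.

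In each comparison 4 of the 7 names, all of miR-486, were called lower at the IS and 0 were called higher. In *Spalax*, miR-486a-3p and miR-486b-3p passed the filter of 10 only through the UIS. At the *Spalax* IS they held 3.80 to 8.68 and 5.07 to 17.4 normalized counts. Their *Spalax* calls therefore add no support to those of the 5p names. Over all microRNAs tested, limma called 22.8% lower and 25.5% higher in granuloma, 22.1% and 15.2% for *Spalax* fibrosarcoma, and 25.6% and 32.2% for mouse fibrosarcoma. Scaled to library totals, the same 4 names were called lower, beside 11.2%, 9.17% and 5.67% of all microRNAs. With the animal as a block, 4 names were called lower in each *Spalax* comparison and 6 in mice, where miR-451a and miR-144-5p joined them, beside 22.1%, 20.1% and 15.7% of all microRNAs. Those 4 names also had every IS library below every UIS library, which held for 36.5%, 36.9% and 30.2% of all microRNAs tested. Over the 6 distinct rows, of which limma called 3 in each comparison, the median log2 fold change was -2.86, -2.77 and -4.004, beside 0.13, -0.23 and 0.21 for all microRNAs tested. The changes in granuloma and in *Spalax* fibrosarcoma share no libraries, and the test of their difference called 0 of the 7 names (3.8% of all microRNAs), and 0 had an unadjusted p under 0.05 (21.3% of all), the smallest being 0.605. That difference was 0.22 (standard error 1.25) for miR-451a and -0.40 (standard error 0.97) for miR-486a-5p. The UIS tissue of granuloma-bearing and fibrosarcoma-bearing *Spalax* also gave 0 called names (0.0% of all microRNAs, limma), and 0 names with an unadjusted p under 0.05 (1.12% of all), the smallest being 0.204.

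**Figure D2:**
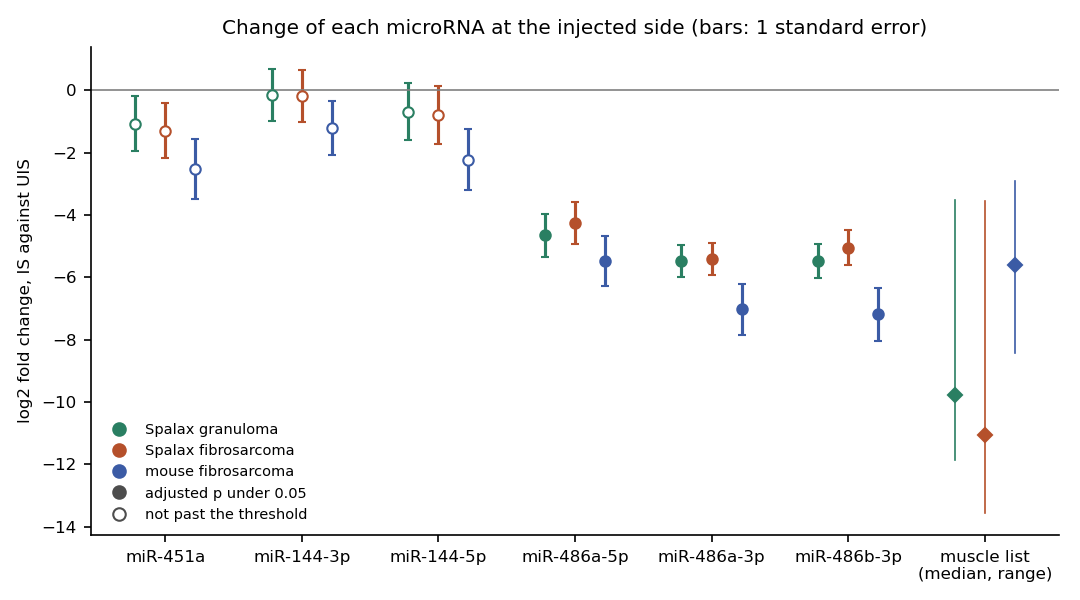
Log2 fold changes at the IS against the UIS for 6 of the names (miR-486b-5p equals miR-486a-5p) in the 3 comparisons, with bars of 1 standard error, filled points for adjusted p under 0.05 in limma, and diamonds with lines for the median and range of the muscle list. The miR-486 points lie between -4.26 and -7.19, below the open points of miR-451a and miR-144, which lie between -0.16 and -2.54.

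MiR-486 was then set against the muscle microRNAs, among which miR-1 and miR-133 are shared by heart and skeletal muscle, and miR-206 is particular to skeletal muscle. Of the 15 names of the list, 11 were tested in *Spalax* and all 11 fell in both tumor types, and 8 were tested in mice, where 4 fell. Scaled to library totals, the 11 still fell in *Spalax*, and 2 fell in mice, miR-1a-3p and miR-133a-3p. The log2 fold changes in granuloma, *Spalax* fibrosarcoma and mice were -11.86, -13.03 and -8.07 for miR-1a-3p and -11.69, -13.24 and -8.44 for miR-133a-3p (limma, highest adjusted p = 0.0157). MiR-206-3p was at -11.25 and -12.91 in *Spalax* (adjusted p = 0.00174 and 0.00116) and at -3.43 in mice (limma, adjusted p = 0.148). The list median was -9.79, -11.06 and -5.60, beside -4.65, -4.26 and -5.47 for miR-486a-5p. With the animal as a block, 5 names fell in mice, and the mouse list median was -3.46 beside -5.20 for miR-486a-5p.

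Within a library, a ratio of 2 microRNAs does not depend on the size factor. At the *Spalax* UIS there were 8.27 to 14.7 reads on the muscle list for each read on the miR-486 5p names together. At the *Spalax* IS the order was turned, with 5.23, 23.3, 27.9 and 73.0 reads of the 5p names for each read of the list in animals spalax_600, spalax_976, spalax_2230 and spalax_2240. In mice the ratio of the 5p names to the list was 1.26, 0.558 and 0.478 at the UIS of mouse_512, mouse_1023 and the unpaired library. At the IS it was 1.56 in mouse_512, 0.825 in mouse_1023 and 98.1 in mouse_1019. Both 5p names enter this ratio with the same value, so it is too high if reads were counted under both. With identical rows once, the miR-486 names held 21.4% of the reads at the UIS of mouse_512, beside 33.7% for the list. At the IS of mouse_512 they held 3.33% beside 4.25%. In the other mouse libraries the order was the same as in the ratio. The IS library of mouse_1019 held the fewest muscle microRNAs of the mice, 0.0106% of its reads against 4.25% and 2.79% in mouse_512 and mouse_1023. Over the 3 conditions the log2 ratio was 6.28 higher at the IS (exact permutation of the sides within conditions, two-sided, p = 0.00556, adjusted over 6 ratios 0.00667). The difference was 7.02 in granuloma, 8.96 in *Spalax* fibrosarcoma and 2.85 in mice, where the log2 ratio went from 0.34 to 0.65 in mouse_512, from -0.84 to -0.28 in mouse_1023, and stood at 6.62 at the IS of mouse_1019. It was higher at the IS in 6 of 6 pairs (exact sign-flip test within animals, p = 0.0312, the smallest that 6 pairs allow).

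**Figure D3:**
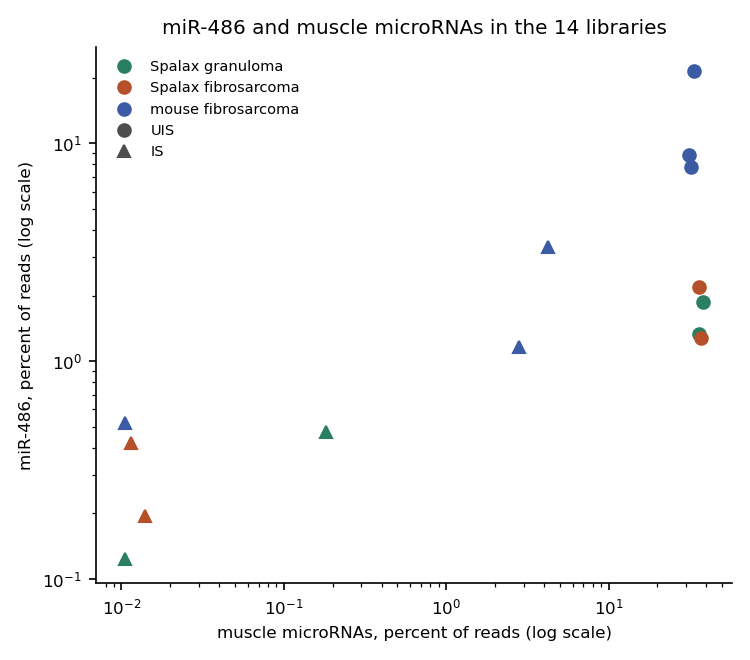
Share of reads on the miR-486 names (identical rows once) against the share on the muscle list, both in percent on log scales, for the 14 libraries, with circles for the UIS and triangles for the IS. The UIS libraries sit together at 31.4% to 38.2% muscle microRNAs, with mice above *Spalax* for miR-486, and 4 IS libraries at 0.0106% to 0.0139% still hold 0.123% to 0.520% miR-486.

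MiR-486 and the red-cell pair were compared in the same way. For each read of miR-451a the UIS libraries held 9.94, 5.88, 4.10 and 5.91 reads of miR-486a-5p in *Spalax* animals spalax_600, spalax_976, spalax_2230 and spalax_2240. At the IS of the same animals it was 0.539, 0.758, 0.752 and 0.529. The 4 IS values stood within 1 narrow band although miR-451a itself ranged from 6609 to 35767 normalized counts among these libraries. In mice the ratio was 37.2, 56.8 and 140 at the UIS of mouse_512, mouse_1023 and the unpaired library, and 14.8, 7.61 and 5.86 at the IS of mouse_512, mouse_1023 and mouse_1019. Every mouse library was above every *Spalax* library of the same side. The species were counted against the same mouse names, so a letter that differs in *Spalax* could lower its counts, and its part in this difference was not tested. The log2 ratio fell by 3.16 at the IS over the 3 conditions (exact permutation, p = 0.00278, the smallest that the design allows, adjusted over 6 ratios 0.00417), and it was lower in 6 of 6 pairs (exact sign-flip test, p = 0.0312). The difference was -3.58 in granuloma, -2.96 in *Spalax* fibrosarcoma and -2.94 in mice.

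The ratio of miR-451a to miR-144-3p was lower at the IS, and that to miR-144-5p overlapped between the sides in mice. MiR-451a had 85.8, 63.7, 46.2 and 48.4 reads for each read of miR-144-3p at the UIS of animals spalax_600, spalax_976, spalax_2230 and spalax_2240. At their IS it had 40.2, 38.1, 16.6 and 29.1. In mice it had 67.6, 67.9 and 42.3 at the UIS of mouse_512, mouse_1023 and the unpaired library, and 23.3, 21.7 and 24.0 at the IS of mouse_512, mouse_1023 and mouse_1019. The sides did not overlap in any condition for miR-144-3p. For each read of miR-144-5p, miR-451a had 34.4 to 44.4 reads at the *Spalax* UIS and 24.0 to 35.7 at the IS. In mice it had 27.8 and 23.2 at the UIS and IS of mouse_512, 27.4 and 27.6 at those of mouse_1023, 29.8 in the unpaired UIS library and 18.9 at the IS of mouse_1019. No test was run on this ratio. The log2 ratio of miR-144-3p to miR-451a was 1.12 higher at the IS (exact permutation, p = 0.00278, adjusted 0.00417), with 0.92 in granuloma, 1.11 in *Spalax* fibrosarcoma and 1.33 in mice, and it was higher in 6 of 6 pairs (exact sign-flip test, p = 0.0312).

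The arms of miR-144 shifted too. MiR-144-3p had 0.518, 0.631, 0.858 and 0.711 reads for each read of miR-144-5p at the UIS of animals spalax_600, spalax_976, spalax_2230 and spalax_2240, and 0.728, 0.938, 1.45 and 0.978 at the IS. In mice it had 0.412, 0.403 and 0.704 at the UIS of mouse_512, mouse_1023 and the unpaired library, and 0.994, 1.27 and 0.787 at the IS of mouse_512, mouse_1023 and mouse_1019. Every IS library was above every UIS library of its condition. The log2 arm ratio was 0.72 higher at the IS (exact permutation, p = 0.00278, adjusted 0.00417), in 6 of 6 pairs (exact sign-flip test, p = 0.0312). Between 137 and 1323 reads of miR-144-3p stand behind each value.

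The 5p arm of miR-486, the main product of its hairpin, gained on the 3p arm at the IS. The reads of the 5p names for each read of the 3p names were 547 to 965 at the *Spalax* UIS and 1054 to 2688 at the IS, and 168 to 305 at the mouse UIS and 483 to 1072 at the IS. The log2 arm ratio was 1.23 higher at the IS (exact permutation, p = 0.00278, adjusted 0.00417), in 6 of 6 pairs (exact sign-flip test, p = 0.0312). In *Spalax* the IS values rest on 7 to 23 reads of the 3p names, with reads possibly counted under both names. Every IS library also held fewer reads in all than every UIS library, and the part of depth or RNA quality in these arm ratios was not tested.

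MiR-23a-3p occurs in many cells and little in red cells, and its ratio to miR-451a is used in blood plasma as a measure of red-cell content. MiR-451a had 2.75, 3.72, 7.95 and 2.68 reads for each read of miR-23a-3p at the UIS of animals spalax_600, spalax_976, spalax_2230 and spalax_2240, and 4.22, 0.775, 1.25 and 3.69 at the IS. In mice it had 12.5, 1.54 and 0.534 at the UIS of mouse_512, mouse_1023 and the unpaired library, and 1.92, 0.981 and 0.648 at the IS of mouse_512, mouse_1023 and mouse_1019. The sides overlapped in each condition. The log2 ratio was -0.98 (exact permutation, p = 0.172, also 0.172 when adjusted), lower at the IS in 4 of 6 pairs (exact sign-flip test, p = 0.156). MiR-23a-3p itself was at -0.25 and -0.19 in *Spalax* (limma, adjusted p = 0.523 and 0.659) and fell by 1.51 on the log2 scale in mice (adjusted p = 0.00759). Scaled to library totals it was at 1.59, 1.4997 and 0.87 (limma, adjusted p = 0.00285, 0.00453 and 0.119). It was thus called higher in both *Spalax* comparisons on that scale and not called in mice. The median of all microRNAs tested was then 1.90, 1.40 and 2.58.

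**Figure D4:**
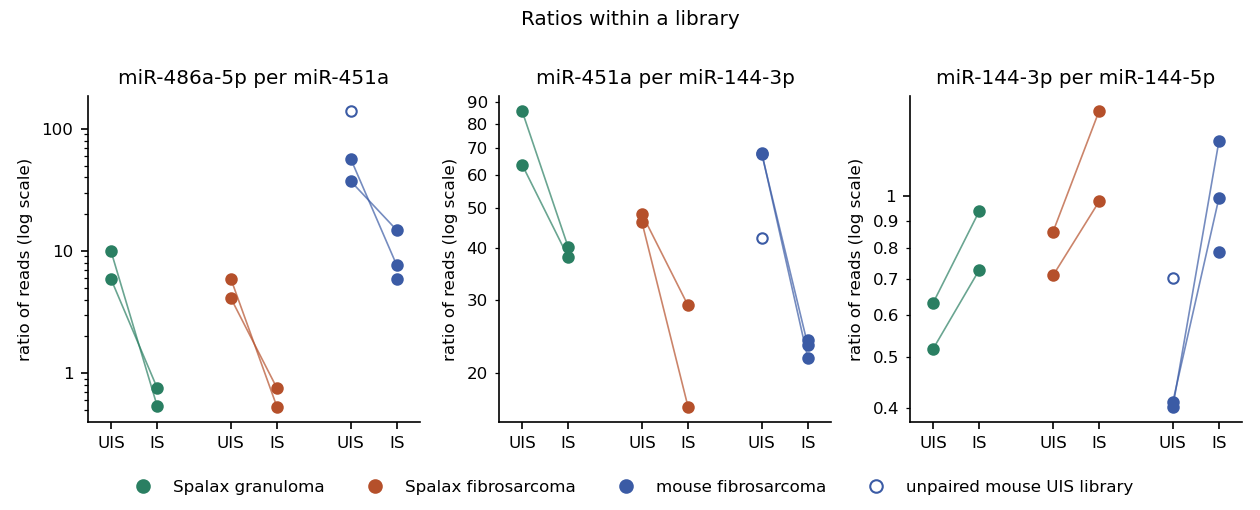
Ratios of reads within a library (log scales) for miR-486a-5p per miR-451a, miR-451a per miR-144-3p and miR-144-3p per miR-144-5p, at the UIS and IS of each condition, with lines joining the sides of an animal and an open circle for the unpaired mouse UIS library. Within every condition the IS points lie on 1 side of the UIS points, and the line of each of the 6 pairs runs the same way.

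Within groups, miR-451a and both arms of miR-144 were high or low together in a library, and miR-486 went with them less closely. At the granuloma UIS, spalax_600 held more miR-486a-5p than spalax_976 (299759 against 204407) but less miR-451a (30143 against 34781). In the other groups miR-486a-5p had the order of miR-451a. At the mouse UIS, miR-486a-3p was higher in the unpaired library than in mouse_1023 (5962 against 4757), unlike miR-451a. Taking each library's deviation from its group mean on the log2 scale, miR-144-5p followed miR-451a over the 14 libraries with Pearson's r = 0.991 (Spearman's rho = 0.982) and miR-144-3p with r = 0.978 (rho = 0.969). Both had the smallest p that permutation of libraries within groups allows (p = 0.00174, adjusted over 6 relations 0.00521). MiR-486a-5p followed miR-451a with r = 0.871 (permutation p = 0.00347, adjusted 0.00694) and rho = 0.908 (permutation p = 0.00347). MiR-486a-3p did so with r = 0.640 (permutation p = 0.0174, adjusted 0.0260) and rho = 0.815 (permutation p = 0.0104). Without the 2 mouse UIS libraries farthest from the middle, mouse_512 and the unpaired library, r was 0.980 for miR-144-5p, 0.961 for miR-144-3p, 0.877 for miR-486a-5p and 0.635 for miR-486a-3p.

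The summed muscle list gave r = 0.458 (permutation p = 0.0278, adjusted 0.0333) and rho = 0.556 (permutation p = 0.120), and without those 2 libraries r was 0.616. MiR-23a-3p gave r = -0.502 (permutation p = 0.314) and rho = -0.411 (permutation p = 0.236). Within *Spalax* alone r was 0.991 for miR-144-5p, 0.960 for miR-144-3p and 0.953 for miR-486a-5p, and within mice 0.991, 0.989 and 0.829. Groups of 2 libraries give deviations that mirror each other, and 12 libraries come in pairs from 6 animals, so the points are not fully independent. With shares of reads in place of normalized counts, r was 0.989 for miR-144-5p, 0.972 for miR-144-3p and 0.838 for miR-486a-5p.

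**Figure D5:**
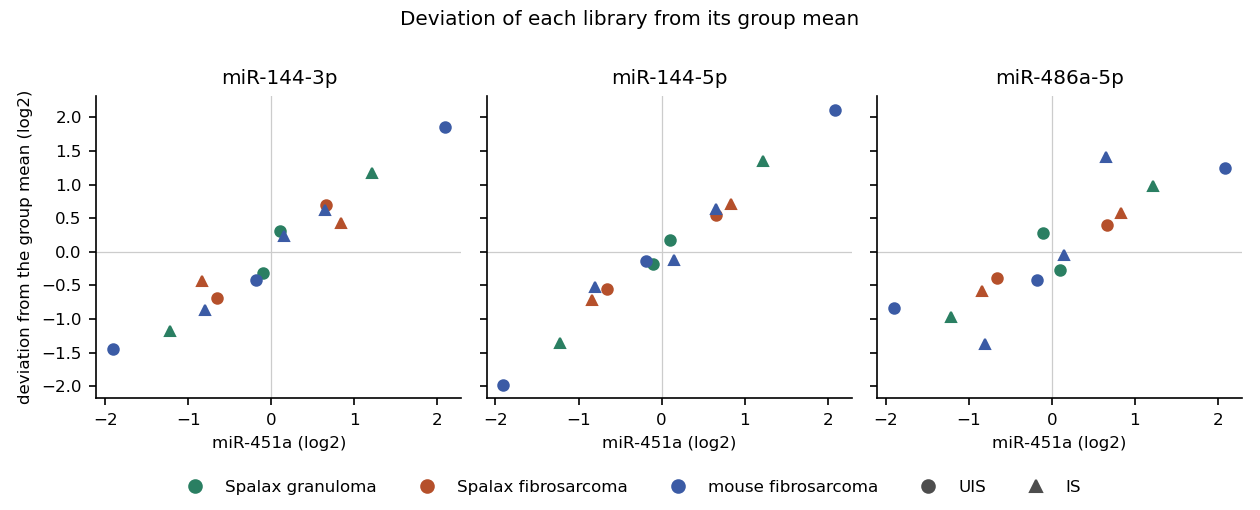
Deviation of each of the 14 libraries from its group mean, log2(normalized count + 1), for miR-144-3p, miR-144-5p and miR-486a-5p against miR-451a, with circles for the UIS and triangles for the IS. The miR-144 points lie along a line through the origin (r = 0.978 and 0.991), and those of miR-486a-5p scatter more widely (r = 0.871).

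Among all other microRNAs tested, those most like miR-451a over the 8 *Spalax* libraries were miR-708-3p, miR-338-3p, miR-124-3p, miR-582-5p and miR-708-5p, with r from 0.840 to 0.933, beside 0.963 for miR-144-5p and 0.772 for miR-144-3p. Over the 6 mouse libraries they were miR-25-3p, miR-365-2-5p, miR-3473d, miR-6945-3p and miR-181b-2-3p, with r from 0.884 to 0.929, beside 0.994 for miR-144-5p and 0.952 for miR-144-3p. No name was shared between the species. Those most like miR-486a-5p were miR-126a-5p, miR-1a-3p, miR-206-3p, miR-3102-3p and miR-133a-3p in *Spalax* (r from 0.974 to 0.980), of which 3 are muscle microRNAs. In mice they were miR-6945-3p, miR-145a-3p, miR-181b-2-3p, miR-181a-2-3p and miR-378d (r from 0.979 to 0.993). These correlations over all libraries of a species carry the difference between the sides and are descriptions only.

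Other microRNAs abundant in red cells but shared with many cells did not move as 1 group on the normalized counts. Of 6 such names, 1 rose and 1 fell in granuloma, 3 rose and 1 fell in *Spalax* fibrosarcoma, and 0 rose and 1 fell in mice. MiR-185-5p was the name that fell, with log2 fold changes of -3.11, -1.80 and -3.43 (limma, adjusted p = 0.00421, 0.0395 and 0.00189). With the animal as a block, miR-185-5p, miR-16-5p and miR-92a-3p missed the threshold in *Spalax* fibrosarcoma (adjusted p = 0.0538, 0.0509 and 0.0662). MiR-15b-5p rose, by 1.99 and 2.15 on the log2 scale, in *Spalax* (adjusted p = 0.00730 and 0.00675) and was at 1.26 in mice (adjusted p = 0.0521). The list median was -0.03, 1.07 and -0.11. After scaling to library totals 4, 4 and 5 of the 6 names rose and 0 fell. The share of all microRNAs called higher on that scale is not given here, so these counts alone do not set the 6 names apart. The list median was then 1.81, 2.76 and 2.27, beside 1.90, 1.40 and 2.58 for all microRNAs tested. Out of a total that counts the muscle microRNAs too, these 6 names held 0.932% to 1.32% of the reads at the UIS and 4.39% to 10.4% at the IS.

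Markers of other cells moved beside the miR-486 result. Leukocyte microRNAs, miR-223, miR-142a and miR-150, took 0.0611% to 0.111% of the reads at the UIS and 0.349% to 2.46% at the IS. Of the 5 of 6 leukocyte names tested, 4 rose and 1 fell in granuloma, 4 rose in *Spalax* fibrosarcoma and 2 rose in mice, with list medians of 3.46, 4.07 and 1.83. On the scale of library totals 4 rose and 0 fell in each comparison, and miR-150-5p was at -0.21 in granuloma (limma, adjusted p = 0.734). The share of all microRNAs called higher on that scale is not given here, so these counts alone do not set the leukocyte names apart. The list medians were then 5.29, 5.75 and 4.21, beside 1.90, 1.40 and 2.58 for all microRNAs tested. With the animal as a block, miR-223-3p and miR-142a-3p, the names that rose in mice, missed the threshold there (adjusted p = 0.0546 and 0.0717) and miR-150-5p passed it at -2.99 (adjusted p = 0.00569). Both endothelial names, miR-126a-3p and miR-126a-5p, fell in each comparison, with log2 fold changes from -2.52 to -2.08 (limma, highest adjusted p = 0.0157). Scaled to library totals they were between -0.73 and 0.10 and none passed. On that scale they lay below the median of all microRNAs tested in each comparison. Of 2 liver names, miR-122-5p was tested in *Spalax*, where it was at -0.40 in granuloma (limma, adjusted p = 0.756, and 1.04 when scaled to library totals). It fell by 4.94 on the log2 scale in fibrosarcoma (limma, adjusted p = 0.00630). The liver names stayed at or below 0.000567% of the reads in every library. At the IS of fibrosarcoma-bearing *Spalax* they held 0% to 5.05e-05%, so that fall rests on counts at or near 0. The part of these cell types, and of blood held in the tissue, in the levels of miR-451a, miR-144 and miR-486 was not tested.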

How the data were processed

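Small RNA libraries (TruSeq) were sequenced on a single lane. The authors trimmed adaptors and mapped the reads with mirDeep, whose build and settings are not given in the sources used here. The submitters' processing notes name TopHat 1.4.1, HTSeq, DESeq and GRCm38 without a role. The authors deposited a signal per microRNA, namely reads divided by a median-of-ratios size factor, in 1 table per species. The *Spalax* factors matched those computed over all 14 libraries, mice included, and the mouse factors those over the 6 mouse libraries. Normalized counts of the species are therefore on different bases. 100% of the values used were whole multiples of the value of 1 read (relative tolerance 1e-06), so whole reads were recovered. The *Spalax* file also repeats 5 mouse libraries, in columns that were not used.

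Groups came from the sample labels. Sides were compared with limma 3.58.1 (R 4.3.3) with a trended prior on log2(value + 1), for the 447 and 547 names that reached a value of 10 in 2 or more *Spalax* libraries and in 3 or more of the mouse libraries, with the 8 *Spalax* libraries in 1 fit, the 6 mouse libraries apart, and Benjamini-Hochberg adjusted p under 0.05 as the threshold. The limma p-values measure the spread between libraries of a group, 2 or 3 per group and each from 1 animal, pooled over the groups of a fit. Without the block they take both sides of an animal as independent. Permutation and sign-flip p-values rank the observed value among rearrangements and measure no spread. Ratios of reads, with 0.5 added to each, were tested by exact permutation of the sides within conditions (720 permutations) and by sign flips within 6 animals (SciPy 1.17.1). Pairs are libraries that the labels give to the same animal. Deviations of same-animal libraries correlated between -0.107 and 0.122 over the microRNAs tested. The alternatives were edgeR 4.0.16 and DESeq2 1.42.0 on recovered reads, other scalings, filter and pseudocount, the animal as a block, and leaving out each library. The scripts were tested on simulated data.

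The members, the marker lists and the rule for named microRNAs (all members, the listed markers, and the 5 names most correlated with miR-451a and with miR-486a-5p in each species) were chosen with earlier results of these data known.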

Additional observations from a re-analysis of the deposited data

How the results depend on the processing

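In each comparison the called names were 4 of miR-486 under the alternatives run in *Spalax*, and 3 in all 3 comparisons when identical rows were counted once. In mice 6 names were called by edgeR, DESeq2 and the animal block, and 4 to 6 when single libraries were left out. MiR-486a-5p passed the threshold in all 3 comparisons under every alternative run. The counts of 0 for the difference of changes and for the uninjected sides stayed 0.

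Scaling to library totals turned the log2 fold change of miR-451a to 0.77 in granuloma and 0.39 in *Spalax* fibrosarcoma. It turned miR-144-5p to 1.15, 0.89 and 0.15 and miR-144-3p to 1.68, 1.499 and 1.17 in granuloma, *Spalax* fibrosarcoma and mice, and miR-486a-5p between the uninjected sides to -0.078. By construction this scaling counts the muscle microRNAs, 31.4% to 38.2% of the UIS reads. For miR-144-3p in granuloma, edgeR with TMM (0.20), edgeR with median-of-ratios factors (0.26) and DESeq2 (0.25) turned the sign, and the cause was not tested.

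In mice miR-451a passed the threshold with edgeR TMM (-3.15), edgeR median-of-ratios factors (-3.27), DESeq2 (-3.35) and the animal as a replicate block (-3.09). MiR-144-5p did so at -2.90, -3.03, -3.11 and -2.96. The cause was not tested. The block changed no other call of the members.

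With single libraries left out, and lone samples assumed to vary like the other groups, the granuloma values ranged from -2.29 to 0.14 for miR-451a, -2.05 to 0.67 for miR-144-5p and -1.33 to 1.02 for miR-144-3p. The lowest was without the IS library of spalax_600 and the highest without that of spalax_976. In *Spalax* fibrosarcoma, they ranged from -2.13 to -0.45, -1.51 to -0.08 and -0.88 to 0.51. In mice miR-451a ranged from -3.49, without the unpaired UIS library, to -1.49, without the UIS library of mouse_512, miR-144-5p from -3.22 to -1.17 and miR-144-3p from -1.92 to -0.27 with the same libraries left out. The difference of changes ranged from -1.0003 to 1.44 for miR-451a and from -1.37 to 0.57 for miR-486a-5p. The uninjected sides ranged from -1.19 to 0.13 for miR-451a and from -0.29 to 0.50 for miR-486a-5p. The 5 ratios called kept direction and threshold under each alternative run. MiR-486a-3p at the *Spalax* IS rests on 3 to 10 reads.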
